A study of Stylophora pistillata with 18 samples.

Results

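The 100 gene models described here are those of the stony coral Stylophora pistillata whose read counts were lowest with the cyclic dinucleotide 2'3'-cGAMP relative to seawater, while their average with 3'3'-cUA stayed within set limits of the seawater average. They were chosen by measured values out of 29419 models. Counts were divided by each library's total and multiplied by 1000000 to give counts per 1000000 (CPM). A model qualified when its mean control CPM was from 1 to under 1000, its mean cUA level was 0.67 to 1.5 times the control mean, its mean cGAMP level was at most 0.6 times the control mean, and its median cGAMP value lay below the lowest control value. The 100 qualifying models with the lowest ratio of cGAMP to control were taken. The rule used the values with both compounds, so these are given as a description, with no p-value; where calls between treatments are counted, the choice of the models had largely fixed them.

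Specimens of wild-type adult colonies were kept for 18 h in plain seawater (control) or in seawater to which 3'3'-cUA or 2'3'-cGAMP had been added, each compound at 250 µM. Their polyadenylated RNA was then sequenced. Each treatment has 6 libraries, 3 labelled colony 1 (1A, 1B and 1C) and 3 labelled colony 2 (2A, 2B and 2C). Seawater was common to all groups, and a single time and dose were used. The RNA came from whole adult colony material, so a lower level from fewer cells of a type cannot be told apart from less RNA per cell.

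Cyclic dinucleotides are small signalling molecules. In animals, cGAS and related cGAS-like receptors make them after sensing foreign or misplaced nucleic acid, and the receptor STING binds them and starts innate immune programmes. In mammals 2'3'-cGAMP is the product of cGAS, whereas 3'3'-cUA carries a uridine and an adenosine joined by 3'-5' linkages. The coral genome encodes many cGAS-like receptors, which makes corals useful for asking whether different cyclic dinucleotides give different responses.

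The models carry no product names. Of the 100, 53 could be matched to a RefSeq LOC symbol, none with a description, so the role of the encoded proteins is not given and cell type markers could not be examined. The library totals ranged from 22175801 to 41800393 counts. A count of 0 in a library allows up to 0.0718 to 0.135 CPM, depending on its total, and these limits cover counting error only.

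Libraries that stood apart touch every result below. Control 1A and cUA 2A had the lowest scaling factors of edgeR's TMM method, 0.714 and 0.619, against 0.862 to 1.23 in the other libraries. The libraries also fell into 2 sets that crossed the colony labels. Among 21275 tested models other than the 100, 95 had 2 levels separated by a gap of more than 4-fold with at least 5 libraries on each side. The sets are the division shared by 76 of these, and 16 others shared a different division. The first set held control 1B and 1C, cUA 1C, 2A and 2B, and cGAMP 1A, 1B, 1C and 2C. The second set held control 1A, 2A, 2B and 2C, cUA 1A, 1B and 2C, and cGAMP 2A and 2B. With a gap of more than 2-fold, 208 models separated these sets completely and 0 separated the colony labels. The 208 include the 76 models that gave the sets, so this contrast is a description and not a separate test. By this division 6 libraries (control 1A, cUA 1A, 1B, 2A and 2B, and cGAMP 2C) lay with the libraries of the other colony label. The cause was not tested, and the sets, which were defined from the data, are used below as a description. The first set holds 2 control, 3 cUA and 4 cGAMP libraries, and the second holds 4, 3 and 2.

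The chosen models were the upper edge of a continuous distribution rather than a separate class. Of the models with a control mean within the limits, 2224 met the conditions on cGAMP, and their median level with cUA was 56.3% of the control mean. The cUA average lay below 0.67 of the control in 1580 of them, within the limits in 641 and above in 3. Among the 1025 with a cGAMP ratio as low as that of the chosen models, 925 were also below 0.67 with cUA and 100 (9.76%) were not. Within the 100, the cUA average was 67.03% to 143% of control with a median of 74.5%, and 54 models lay between 0.67 and 0.75. Only 6 had a cUA average at or above the control average. With cGAMP the levels were 5.82% to 35.3% of control, with a median of 30.4%. Control means spanned 1.00 to 641 CPM with a median of 3.94 CPM, and 32 of the 100 lay under 2 CPM.

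**Figure D1:**
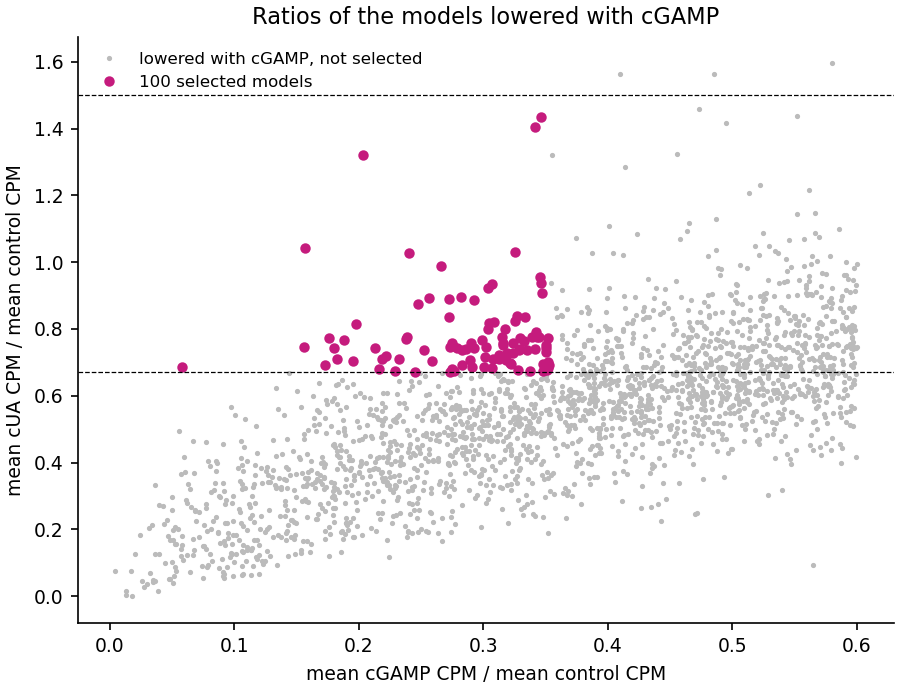
Ratio of the mean cUA level to the mean control level (vertical axis) against the ratio of the mean cGAMP level to the mean control level (horizontal axis) for the 2224 models that met the conditions on cGAMP. The 100 chosen models are coloured and the dashed lines are the limits of 0.67 and 1.5; most chosen models lie just above the lower line, with no gap between them and the grey models below it.

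At the edges of the rule the values were close. At the rank limit the ratio of cGAMP to control was 0.353 for LOC111327809 inside and 0.355 for Spis_XP_022783353_1 outside. At the lower cUA limit the ratio was 0.6703 for Spis_XP_022809851_1 inside and 0.6695 for Spis_XP_022799531_1 outside. The highest cUA ratio was 1.43, in Spis_XP_022797121_1. At the lower control limit the mean was 1.00 CPM for LOC111340256 and 0.971 CPM for Spis_XP_022793577_1. For LOC111328566 the median cGAMP value of 1.06 CPM lay just below the lowest control value of 1.08 CPM, and for Spis_XP_022802178_1, outside, the median of 0.428 CPM lay above the lowest control value of 0.384 CPM.

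The medians over the 100 models were alike in the 6 cGAMP libraries and differed between the 6 cUA libraries. The rule had chosen a low mean and median with cGAMP. Within single models the cGAMP libraries did vary. Their median coefficient of variation was 46.1%, beside 28.5% for the 17344 tested models with a control mean within the limits. The median level of the 100 models, as a percent of each model's control mean, was 62.6%, 117%, 110%, 99.3%, 99.6% and 78.2% in control 1A to 2C. With cGAMP it was 25.7%, 28.4%, 21.7%, 29.9%, 24.5% and 28.7%. With cUA it was 113%, 87.8%, 88.0%, 14.6%, 71.8% and 48.1%. By total counts the cUA libraries 1A, 1B, 1C and 2B thus lay within the range of the control medians, cUA 2C lay below it, and cUA 2A lay below every cGAMP library. The name "spared by cUA" describes the mean of these 6 libraries and not each of them.

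The low position of cUA 2A was partly shared by other models. The median of the 17344 tested models with a control mean within the limits was 50.3% in cUA 2A and 58.9% in control 1A by total counts, and 87.7% and 89.5% after TMM scaling. For the 100 models, TMM scaling moved cUA 2A to 26.2%, cUA 2C to 61.1% and control 1A to 94.9%, and gave 25.6% to 32.8% in the cGAMP libraries. By total counts, cUA 2A was below every control library in 85 of the 100 models, beside 46.6% of all tested models. It was the lowest cUA library in 78 of them, beside 54.8% of all tested models. After TMM scaling it was below every control in 71. The share of all tested models on that scale is not given here, so nothing is read from the 71. In cUA 1A, 3 models lay below every control, beside 8.8% of all tested models, and 17 above every control, beside 22.7%. Without cUA 2A the models' cUA averages had a median of 85.6% of control and a range of 49.2% to 164%.

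**Figure D2:**
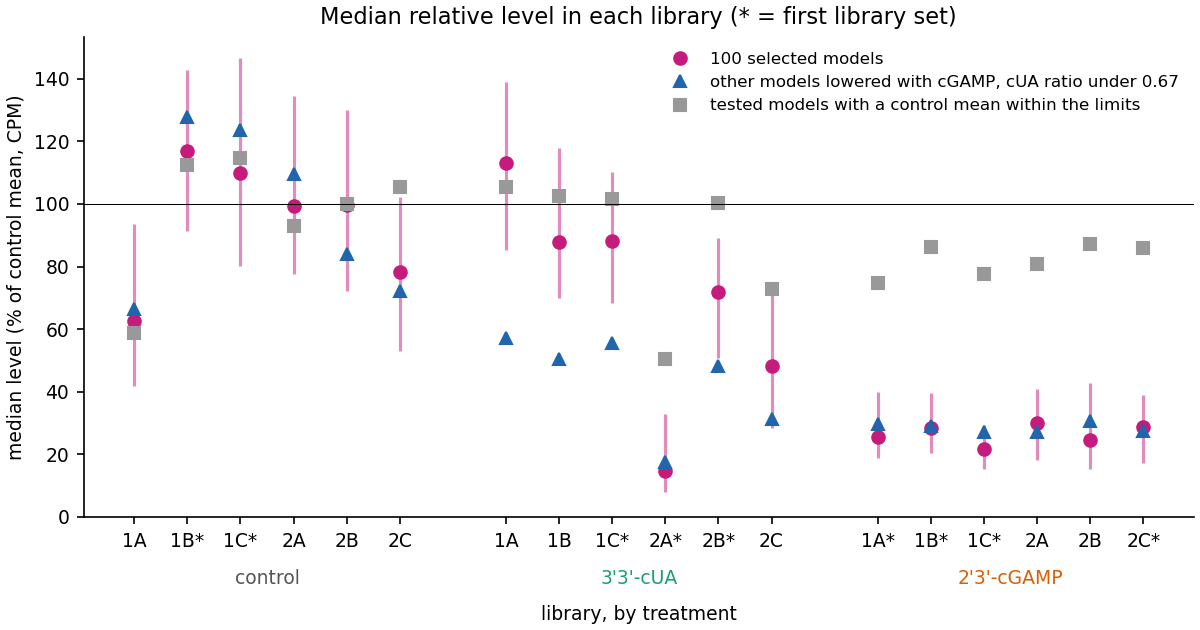
Median level of the 100 chosen models in each of the 18 libraries as a percent of each model's control mean (circles, with bars from the first to the third quartile over models), beside the medians of the 1580 models also below 0.67 with cUA (triangles) and of all 17344 tested models within the control limits (squares), by total counts; stars mark the first library set. The circles fall from 113% in cUA 1A to 14.6% in cUA 2A and stay between 21.7% and 29.9% in the cGAMP libraries.

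The 1580 models that were lower with both compounds show where the 100 differ in level. In those models the medians were 57.1%, 50.5%, 55.5%, 17.6%, 48.3% and 31.3% in cUA 1A to 2C. Both groups were at their lowest in cUA 2A, and the 100 lay above the 1580 in the other cUA libraries. This gap follows from the selection and no test was made of it.

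Between the library sets the cUA level of the chosen models differed, by total counts partly as it did in the 17344 models. In the second set, the cUA average of the 100 models had a median of 97.1% of that set's control average (45.3% to 258%), and 91 models lay within 0.67 to 1.5. Of the 17344 models, 12804 lay within those limits in that set, and their median was 104%. In the first set the median was 55.2% (5.87% to 314%), and 21 models lay within those limits while 78 lay below. For the 17344 models the first-set median was 78.2%, with 8575 within the limits and 6454 below. The cUA level was lower in the first set in 92 of the 100, beside 73.6% of the 17344 models. After TMM scaling the medians were 64.6% in the first set and 89.8% in the second, with 41 and 85 models within the limits. The medians of the 17344 were then 97.5% and 99.1%, with 9060 and 12406 models within the limits. On this scale 73 of the 100 were lower in the first set, beside 53.2% of the 17344. Leaving out cUA 2A, the first set's median rose to 70.7% by total counts and 75.4% after TMM scaling, with 57 and 64 models within the limits. Of the 17344 models, 10834 and 11009 were then within them. With cGAMP both sets were low: the median was 25.1% in the first and 31.0% in the second by total counts. At most 0.6 of control in both sets were 95 of the 100 by total counts and 88 after TMM scaling. The difference between sets in the cUA level was not tested, because the sets were defined from these counts.

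**Figure D3:**
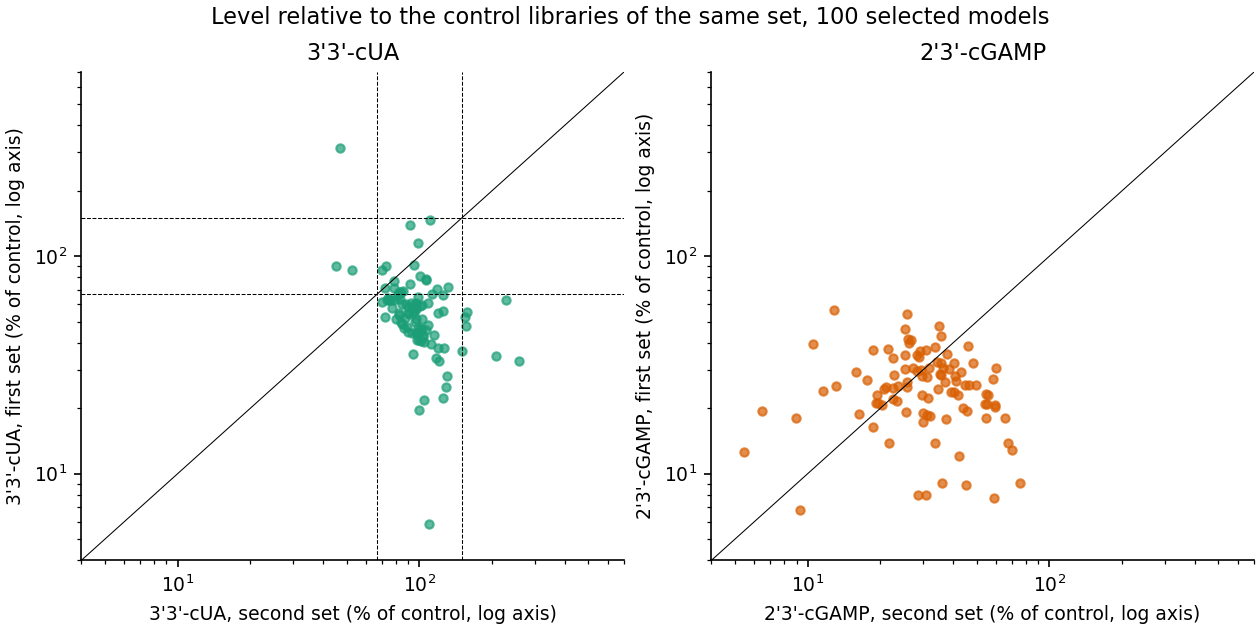
Level of each of the 100 chosen models with 3'3'-cUA (left) and 2'3'-cGAMP (right) as a percent of the control libraries of the same set, first set (vertical, log axis) against second set (horizontal, log axis); the solid line marks equality and the dashed lines the limits of 0.67 and 1.5. With cUA 92 of the 100 points lie below the line of equality, and with cGAMP both sets lie mostly under 60%.

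By colony label, the cUA average had a median of 96.1% of control in colony 1 and 52.7% in colony 2, beside 107% and 76.9% for the 17344 models. It lay within the limits in 61 and 33 models respectively, and in both colonies in 15. It was lower in colony 2 in 72 of the 100, beside 73.8% of the 17344 models. The cGAMP average was at most 0.6 of control in all 100 in colony 1 and in 98 in colony 2. By total counts the share lower in colony 2 was thus near that of the 17344 models. An edgeR fit with TMM scaling and a separate cUA effect for each colony gave another picture. There the cUA effect was lower in colony 2 in 62 of the 100, beside 47.1% of all tested models. The median log2 difference was -0.63, beside 0.06 for all tested models. Because the rule bounds the cUA average over both colonies, nothing is read from these differences between the colonies.

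The rule pooled the colonies, so differences between the labels could be tested, although it does limit the spread of the control libraries. It also bounds the cUA average over both colonies. A model low in cUA 2A therefore met the lower bound only with higher values in other cUA libraries. edgeR's quasi-likelihood test, adjusted by Benjamini-Hochberg over 21375 models that passed a filter on low counts, found 0 of the 100 models different between colony labels, beside 0% of all tested models. At an unadjusted p under 0.05 there were 14 of the 100, beside 8.29% of all, the smallest adjusted p was 0.576, and DESeq2 called 0 of the 100. The colony by cGAMP interaction was called in 0 models, beside 0% of all tested; 7 of the 100 had an unadjusted p under 0.05, beside 5.24% of all, and DESeq2 called 0. The colony by cUA interaction was called in 0 models, beside 0% of all tested; 24 of the 100 had an unadjusted p under 0.05, beside 12.03% of all. DESeq2 called 5 of the 100 for this interaction, beside 1.21% of all models to which it gave an adjusted p. Because the bound on the cUA average can shape the counts for the colony by cUA interaction, nothing is read from them. All 100 models had passed the filter.

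These tests rest on labels that 6 libraries went against. Without those 6, edgeR called 29 of the 100 different between colony labels, beside 22.5% of all tested models, and again 0 for either interaction. The libraries left out were chosen from levels in the same counts, so the count of 29 is a description and lies near the background. The labels name several specimens of 2 colonies, so p-values measure only the spread between these specimens.

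The model with the largest cGAMP difference was LOC111331896. It had 0.370, 0.672, 0.598, 2.93, 2.08 and 3.10 CPM in control 1A to 2C, and 3.03, 2.33, 0.366, 0.0674, 0.246 and 0.658 CPM with cUA. With cGAMP it had 0.132, 0.0419, 0, 0.214, 0.180 and 0 CPM. All cGAMP values lay below all controls, whereas the cUA values spanned the control range and fell below it. Controls 2A, 2B and 2C were high, as were cUA 1A and 1B, all of which belong to the second library set. Control 1A and cUA 2C also belong to that set but were low, at 0.370 and 0.658 CPM. Its log2 fold change was -3.77 ± 0.91 (SE) with cGAMP and -0.33 ± 0.88 with cUA.

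LOC111321935 had the opposite arrangement. Its controls 1B and 1C, at 26.2 and 19.6 CPM, stood above the other controls at 2.29 to 6.53 CPM. With cUA, libraries 1C and 2B reached 16.8 and 16.0 CPM and the others 0.236 to 6.61 CPM. With cGAMP all 6 lay between 0.642 and 2.33 CPM, with 1 of them just above the lowest control. The high control and cUA libraries of this model all belong to the first set. Library cUA 2A is also of that set but was low, at 2.29% of the control mean. The log2 fold change was -2.21 ± 0.69 with cGAMP and -0.24 ± 0.65 with cUA.

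Spis_Spis24635_1 had the smallest SE with cGAMP among the 12 models with the lowest cGAMP ratio. It had 6.52, 11.4, 13, 5.42, 13.3 and 13.9 CPM in control 1A to 2C, and 2.24, 2.55, 1.89, 1.36, 1.85 and 2.54 CPM with cGAMP. With cUA it had 11.4, 9.40, 9.98, 1.25, 7.92 and 4.73 CPM. The cGAMP and control values did not overlap, and cUA 2A lay below the lowest cGAMP library while 4 cUA libraries lay within the control range. The mean of 6 libraries was 10.6 ± 3.70 CPM (SD) in control, 7.45 ± 3.80 CPM for cUA and 2.07 ± 0.464 CPM for cGAMP. The log2 fold change was -2.17 ± 0.30 with cGAMP and -0.56 ± 0.29 with cUA.

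LOC111324282 was the most abundant of these 12. It had 51.4, 72.3, 65.3, 123, 120 and 65.6 CPM in control 1A to 2C, and 17.3, 24.2, 19.6, 18.0, 13.7 and 13.4 CPM with cGAMP. With cUA it had 145, 87.7, 62.6, 8.36, 42.2 and 24.1 CPM. The cGAMP libraries lay in a narrow band under every control. The cUA libraries ran from above the highest control, in 1A, to below the lowest cGAMP library, in 2A, with those labelled colony 1 all above those labelled colony 2. This model had the smallest p of the 100 for the colony by cUA interaction, with a log2 difference of -2.28 ± 0.52 and an adjusted p of 0.318 by edgeR. Within the library sets its cUA average was 54.8% of control in the first and 95.2% in the second.

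Of the other 8 models with the lowest ratios, Spis_XP_022795080_1, LOC111342624 and LOC111326457 had their lowest cUA value in cUA 2A, at 0.101, 0.0674 and 0.0337 CPM. LOC111340256 was listed at 0 in cUA 1C and 2A and in cGAMP 1A and 1C, and its second-set values with cUA reached 2.81 CPM. Spis_XP_022795490_1 had 7.41 and 7.36 CPM in cUA 1A and 2C, above every control, and at most 3.26 CPM in the other cUA libraries. Spis_XP_022805769_1 was high in control 1B and 1C and in cUA 1C and 2B, as LOC111321935 was. LOC111335996 was high in the same libraries and in cUA 1A, its highest cUA library at 2.45 CPM. LOC111333892 averaged 5.93 ± 2.97 CPM in control, 4.84 ± 3.28 CPM for cUA and 1.17 ± 0.824 CPM for cGAMP (SD over 6 libraries).

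**Figure D4:**
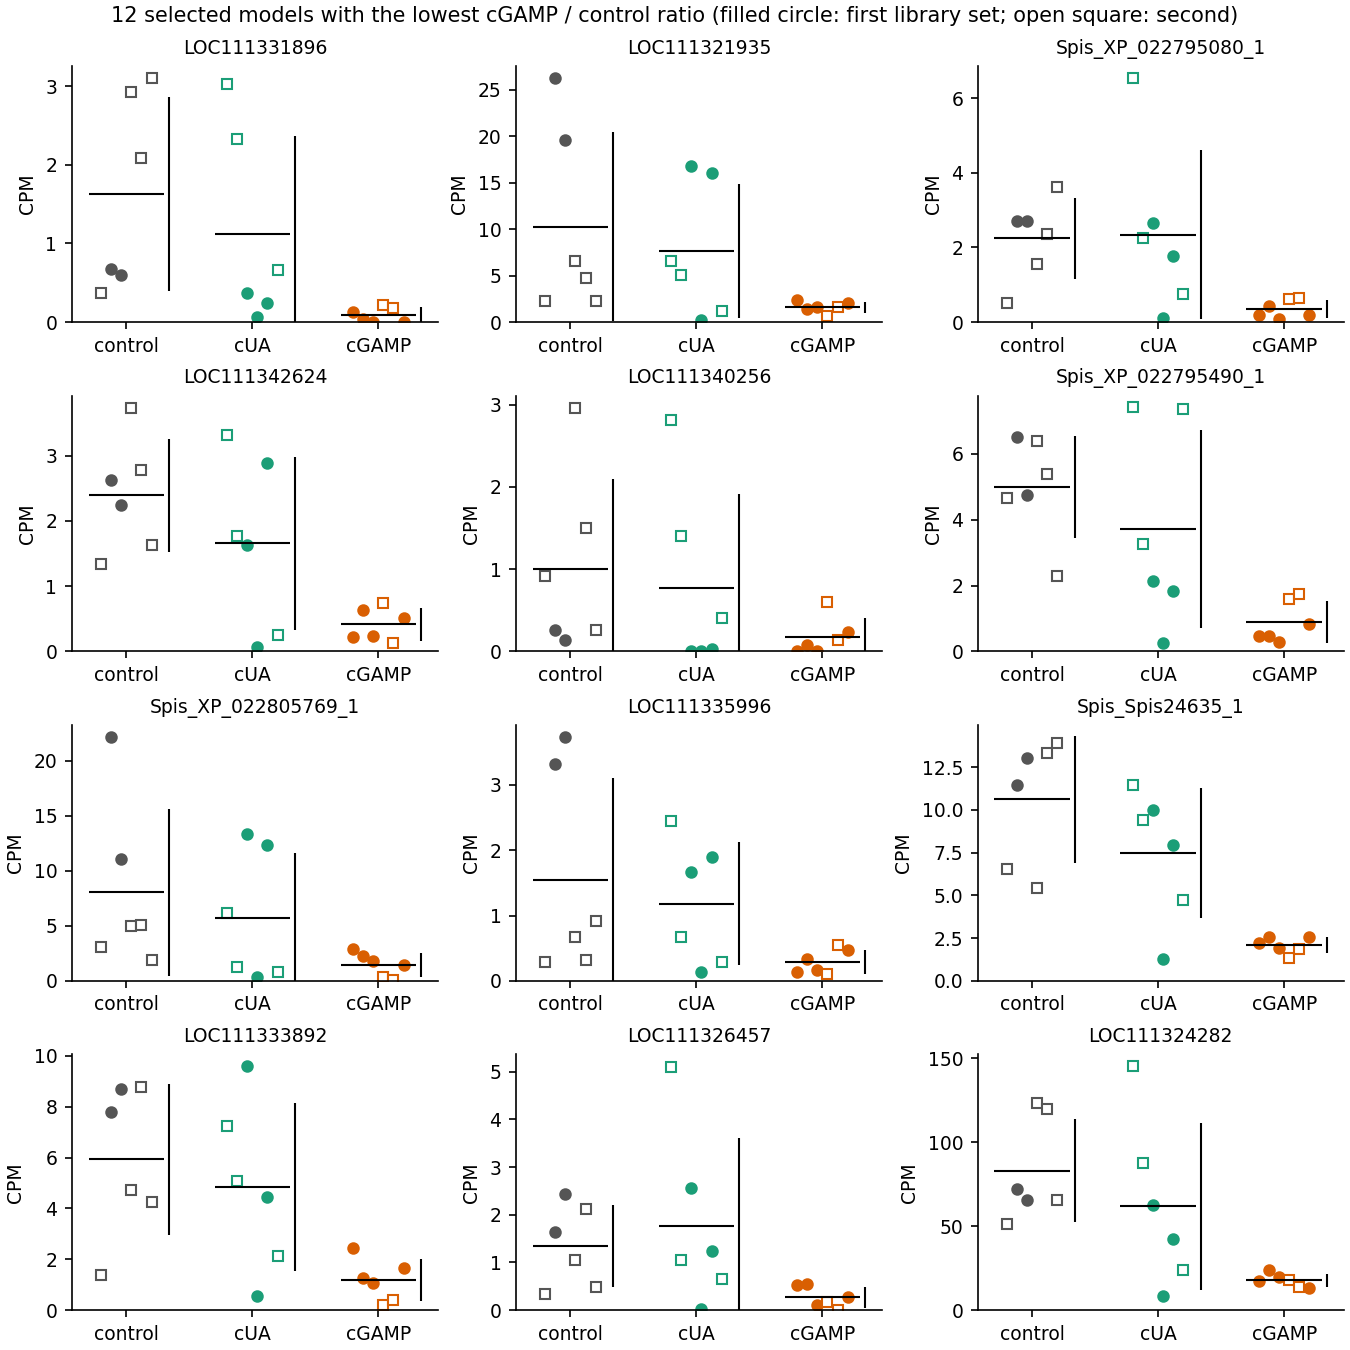
CPM by total counts of the 12 chosen models with the lowest ratio of cGAMP to control in every library of the 3 treatments, filled circles for the first library set and open squares for the second; horizontal lines are means of 6 libraries and vertical lines the SD, drawn from 0 where it would pass below it. The cGAMP points lie low in each panel, and the cUA points spread over the range of the controls and below it.

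The most abundant of the 100 was Spis_XP_022782036_1. It had 375, 879, 1175, 371, 480 and 566 CPM in control 1A to 2C, and 344, 210, 289, 86.7, 116 and 176 CPM with cGAMP. With cUA it had 461, 338, 921, 95, 753 and 505 CPM. All cGAMP values lay below all controls, and 4 cUA libraries lay within the control range. The log2 fold change was -1.47 ± 0.36 with cGAMP and -0.18 ± 0.35 with cUA. Per kilobase of coding sequence its control level was 876 CPM, the highest of the 100, for which the median was 3.24 beside 7.28 for all tested models.

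The next most abundant models, LOC111329996, LOC111322539, LOC111325851, LOC111321759 and LOC111327809, had control means of 83.1 to 242 CPM. LOC111325851 had the cUA average nearest to control among them, at 93.7%, with 327, 158, 153, 38.0, 151 and 156 CPM in cUA 1A to 2C against 114 to 212 CPM in the controls. With cGAMP it had 35.7 to 76.7 CPM. In each of these 5 models the lowest cUA value was in cUA 2A, from 15.6 CPM in LOC111321759 to 38.0 CPM in LOC111325851. Their log2 fold changes with cGAMP were between -1.55 ± 0.35 in LOC111322539 and -1.26 ± 0.25 in LOC111327809.

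In some of the 100 models the level followed the library set. In 7, every library of the first set was lower than every library of the second after TMM scaling, beside 1.61% of all tested models, and in 0 was every library of the first set higher. The first set holds more cGAMP than control libraries, so the rule favoured models low in it. Nothing is therefore read from these counts. These 7 were named after their values were seen. LOC111319059 had 0.256 and 0.550 CPM in control 1B and 1C and 4.90 to 14.3 CPM in the other controls. With cGAMP it had 4.99 and 6.04 CPM in 2A and 2B, and at most 0.118 CPM in the 4 libraries of the first set. With cUA it had 6.72, 13.5 and 8.23 CPM in 1A, 1B and 2C, and at most 0.387 CPM in the others.

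In LOC111319059 the treatments therefore overlapped within the second set, where the cGAMP average was 59.4% of control and the cUA average 102%. LOC111325371 had the same arrangement, with 28.5 and 17.3 CPM in cGAMP 2A and 2B, at most 1.73 CPM in the other cGAMP libraries, and 27.6 to 49 CPM in the second-set controls. Within the second set its cGAMP average was 60.1% of control. The others were LOC111343446, Spis_XP_022786041_1, Spis_XP_022806593_1, Spis_XP_022806961_1 and Spis_Spis22588_1, with second-set cGAMP averages of 42.4% to 58.3% of control and first-set averages of 12.1% to 38.7%. The first set held 2 of 6 control and 4 of 6 cGAMP libraries, and the part of that imbalance in the pooled ratios was not tested beyond these within-set values.

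**Figure D5:**
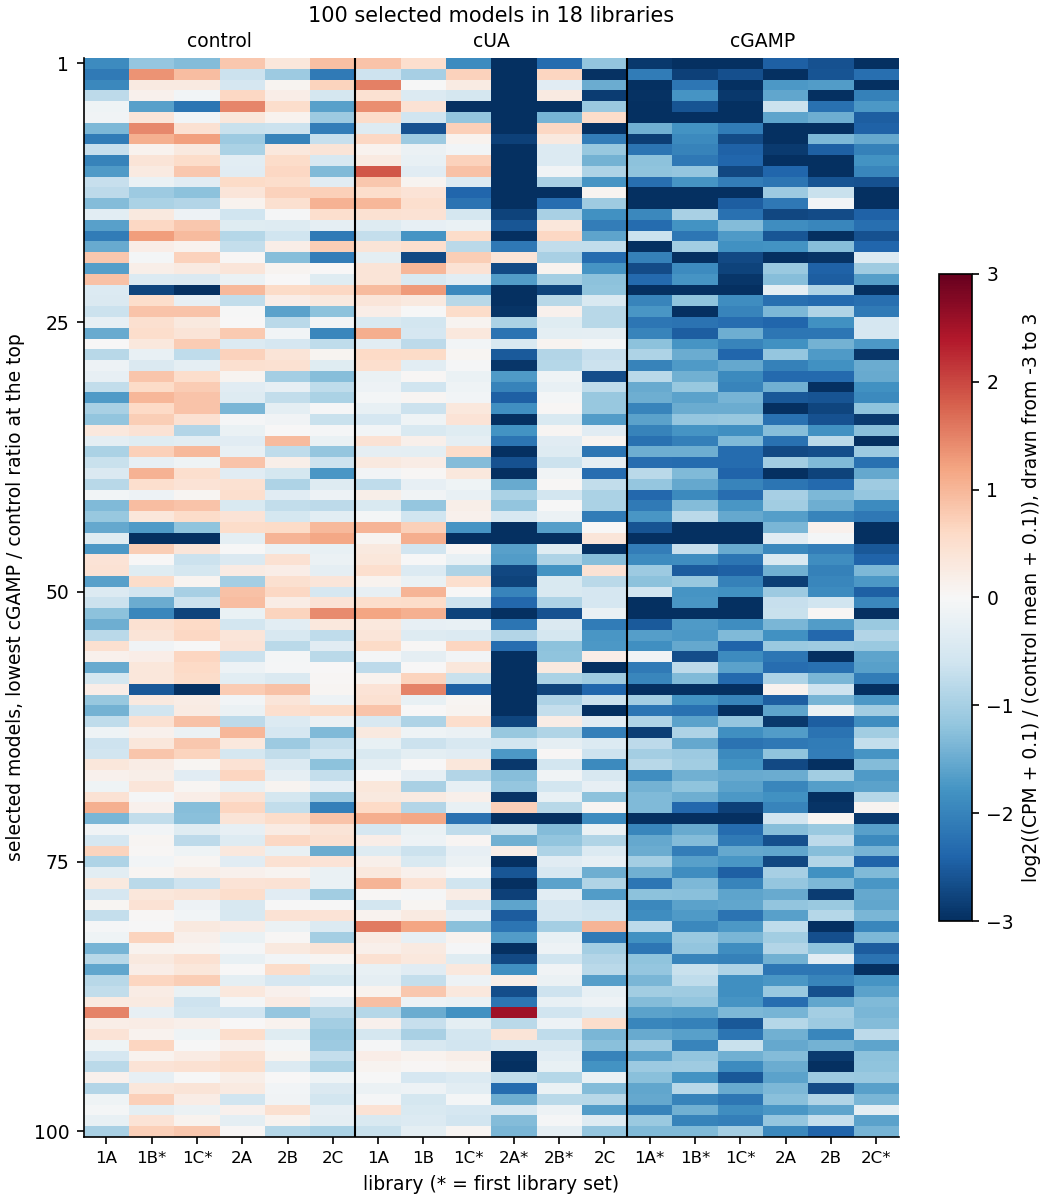
Level of the 100 chosen models (rows, lowest ratio of cGAMP to control at the top) in 18 libraries (columns), as log2 of CPM + 0.1 over the control mean + 0.1, drawn from -3 to 3; stars mark the first library set. The cGAMP columns and the cUA 2A column are blue in most rows, and the 7 models separated by the sets show as rows that are blue in the starred columns.

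The counts of calls between treatments were largely set by the choice of the models and are given for completeness. edgeR called 82 of the 100 models lower with cGAMP, beside 12.3% of all tested models, with a median log2 fold change of -1.58 beside -0.07 for all models. With cUA it called 0 of the 100 different from control, beside 10.2% of all tested models, and 3 had an unadjusted p under 0.05. The median log2 fold change with cUA was -0.37, and 90 of the 100 were below 0. Between the compounds it called 0 of the 100, beside 0% of all tested models, while 84 had an unadjusted p under 0.05, beside 8.56% of all. Limma-voom called 0 of the 100 and DESeq2 14, the latter beside 0.481% of all. Without control 1A and cUA 2A edgeR called 40 of the 100, beside 3.35% of all. The rule used these 3 contrasts, which share libraries, so nothing is read from these counts.

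The cGAMP libraries overlapped the controls in most of the 100. All 6 cGAMP libraries lay below every control in 41 models, beside 5.34% of all tested models, 5 in 23, 4 in 30 and 3 in 6. No cUA library lay below every control in 6 models, beside 39.3% of all tested models. A single cUA library did in 33, beside 33.1%, 2 did in 33, beside 14.2%, and 3 or more did in 28, beside 13.4%. The rule bounds the cUA average from below and above, so nothing is read from these counts. Control 1A was the lowest control in 36 of the 100, beside 58.8% of all tested models.

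The spread between libraries of a treatment was wide in the 100 and, to a lesser degree, in the 1580 models lower with both compounds. The median coefficient of variation was 43.8% in control, 58.6% with cUA and 46.1% with cGAMP, beside 35.5%, 38.4% and 28.5% for the 17344 models. In the 1580 it was 39.0% in control, 48.6% with cUA and 42.8% with cGAMP. Without cUA 2A the value with cUA was 45.3% beside 27.3%. After treatment means were removed, the mean pairwise correlation of log2 levels across the 18 libraries was 0.162 among the 100, 0.130 among the 1580 models lower with both compounds and 0.00618 among the 17344. Without cUA 2A it was 0.0911 among the 100, 0.125 among the 1580 and 0.00626 among the 17344, so the order of the 100 and the 1580 turned round. All these points share the same libraries, so the correlations are a description.

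In structure the 100 were described beside all tested models, with no test. They had a median of 5 coding segments, as did all tested models, and a median coding length of 1290.5 bases beside 1173. Single-segment models made up 12% of them beside 13.7%, and 49 lay on the plus strand and 51 on the minus strand. They were spread over 93 scaffolds. The spans of 4 overlapped another model, beside 4.62% of all tested models. LOC111325237 and Spis_XP_022795490_1 did so on the opposite strand, and Spis_XP_022797525_1 and LOC111346089 on the same strand. Spans include introns and the strand setting was not given, so their counts may be uncertain, which was not tested.

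Of 7 pairs of consecutive models of the 100 on a scaffold, 2 had no other model between them. Spis_XP_022789596_1 (NW_019217913.1, bases 282801 to 286292) ends where LOC111329203 (bases 286293 to 291300) begins, both on the plus strand with 5 and 9 coding segments. LOC111329203 had 4.78, 9.47, 5.48, 3.87, 7.51 and 8.05 CPM in control 1A to 2C, and 8.43, 8.06, 3.63, 0.404, 3.62 and 4.73 CPM with cUA. With cGAMP it had 1.58, 2.76, 1.73, 1.28, 1.22 and 1.29 CPM, all below every control. Spis_XP_022789596_1 had 2.05 to 4.54 CPM in control, 0.371 to 4.38 CPM with cUA and 0.392 to 1.55 CPM with cGAMP. Their log2 levels had a Pearson correlation of 0.91 over the 18 libraries, which include the treatment difference that chose both.

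A further pair, LOC111335996 and LOC111335568, also had no model between them. They lie on NW_019217793.1 at bases 325352 to 337305 on the plus strand and 346894 to 355467 on the minus strand, 9588 bases apart. LOC111335568 had 17.4, 55.4, 66.9, 28.8, 20.05 and 15 CPM in control 1A to 2C and 5.10 to 15.9 CPM with cGAMP. With cUA it had 28.1, 27.8, 49.96, 1.79, 25.9 and 7.32 CPM. Control 1B and 1C were its highest controls, and cUA 1C its highest cUA library, all of the first set. Its lowest cUA library, cUA 2A at 1.79 CPM, is also of that set. The correlation of the pair over the 18 libraries was 0.75.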

How the data were processed

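Counts of reads per gene model were deposited as a single table with 18 library columns, per the file headers; the values are whole-number counts, not normalized. The submitters' processing notes name STAR, featureCounts and DESeq2. What each tool did, its version, the build and the strand setting were not given in the sources used here. Per the labels' protocols, the kit was directional and mRNA was captured on oligo(dT) beads. Coordinates are those of the deposited annotation. LOC symbols came from a RefSeq table of assembly jaStyPist1.2, used for names only.

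CPM is a count divided by the library total, times 1000000. Tests used R 4.3.3 and edgeR 4.0.16 (filterByExpr, TMM, robust quasi-likelihood fit with colony and treatment, or their interaction, Benjamini-Hochberg over all tested models, threshold 0.05); the SE is the log2 fold change divided by the square root of F. Alternatives were limma 3.58.1 (voom), DESeq2 1.42.0, other scalings and filters, each colony label alone, a replicate block, and libraries left out. The library sets were found from log2 of TMM-scaled CPM + 0.5. Alternatives using them, or leaving out the 6 libraries that go against the colony labels, were chosen after seeing the data.

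The models and lists were chosen with earlier results of these data known. Named models are the 12 with the lowest cGAMP ratio, the 6 with the highest control mean, those called by a colony test, those at a threshold, and adjacent pairs; others are named as chosen after their values were seen. Lists of cell type markers by product name were void, since no model could be paired with a product name. Sequences are not shown, since no sequence was used here. Within a treatment the libraries differed beyond sampling noise: a chi-square test of counts gave at least 21.2 per degree of freedom.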

Additional observations from a re-analysis of the deposited data

Results flagged for a closer look

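In 5 of 75 groups of 6 libraries, 1 library stood far from the other 5 by Dixon's test, which chance does in about 1 in 20 groups. Spis_XP_022797121_1, the model with the highest cUA ratio of the 100, gave 2 of them. Its level was 10.2 CPM in cUA 2A against 0.399 to 1.23 CPM in the other cUA libraries, and 4.84 CPM in control 1A against 0.695 to 1.38 CPM in the other controls. Its cUA average was 1.43 times control with cUA 2A and 49.2% of control without it. The adjacent models Spis_XP_022789596_1 and LOC111329203 both stood high in cGAMP 1B, at 1.55 CPM against 0.392 to 0.746 CPM and at 2.76 CPM against 1.22 to 1.73 CPM. LOC111321759 stood low in cGAMP 2B, at 15.0 CPM against 36.5 to 46.0 CPM.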

How the results depend on the processing

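The rule used the treatment contrasts, so the counts of calls in them show only how calls vary with the settings and are no support for the choice. The direction of the log2 fold change with cGAMP was negative in all 100 models, and no alternative reversed a called value among the 24 named models. The number called lower with cGAMP was 82, beside 12.3% of all tested models. With the replicate block it was 77, beside 2216 of all 21375 tested models. That block called 0 of the 100 between cUA and control, beside 1674 of all. Between the compounds it called 0 of the 100, beside 0 of all. Whether the numbers pair the specimens was not settled by the counts. Of 18 same-numbered pairs of libraries, 6 had a correlation of deviations over 0.1, with a range of -0.468 to 0.362. With colony 1 alone, 63 models were called lower with cGAMP (7.11% of all tested) and 0 different with cUA (4.31% of all). With colony 2 alone, 5 were called lower (1.26% of all) and 1 different with cUA (2.22% of all), while the median log2 fold change of the 100 with cGAMP was -1.45 against -1.58 with all libraries. Between the compounds, calls went from 0 to 14 with DESeq2 (0.481% of all) and 40 without control 1A and cUA 2A (3.35% of all). Without the 6 libraries that go against the colony labels there were 2. Leaving out 1 library gave 0 to 5, the highest without cUA 2A. Shares of all models are not given beside these last counts, and nothing is read from them. Between colony labels the count was 0 to 2 leaving out 1 library. The 2 came without control 1A, beside 355 of all 21375 tested models. Without the 6 libraries it was 29 (22.5% of all). DESeq2 called 5 colony by cUA interactions (1.21% of the models to which it gave an adjusted p), a count that the bound on the cUA average can shape.

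Of the 100 models, 56 met the rule again with colony 1 alone, 23 with colony 2 alone, 16 with the first library set alone, 71 with the second alone, and 51 without the 6 libraries. Leaving out 1 library, 51 (without cUA 1A) to 99 met it. With TMM scaling 89 met it, and with group medians 78. The causes were not tested. For each of 24 named models the log2 fold change was recomputed under 29 alternatives. For cGAMP it moved by more than the spread between libraries in 13 values and by less in 683. For cUA it did so in 23 values and moved by less in 673. Of the 13 and 23 values, 8 and 14 came with 1 colony label alone. TMM scaling moved the median log2 ratio of cGAMP to control over the 17344 models from -0.23 to -0.05. Models near 1 CPM rest on few counts, and a difference there was not detectable below the limits given for a count of 0.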
